A study of Mus musculus with 6 samples.

Results

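The 28 genes described here have been reported as repressed in pancreatic beta cells while most other tissues express them, and are often called beta cell disallowed genes. They were listed by gene name after that published idea, with earlier results of these data already known. Every non-control probe whose RefSeq accession gave 1 of their symbols, older or current, was taken. Probes that got no symbol this way were left out, and could include others of these genes. All 28 had a probe, 44 probes in all, among 32451 genes and unnamed transcripts on the array; 18 genes had 1 probe and 10 had several. Fam59a is an older symbol of Garem1.

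The arrays measured total RNA of MIN6B1 cells, a mouse insulin-secreting line derived from an insulinoma of mice that carried the SV40 T antigen under the insulin promoter. All 6 samples were transfected with an siRNA for 48 h: 3 received siGFP, the control, and 3 received an siRNA that targets circHIPK3, the circular RNA formed by an exon of the gene Hipk3. The question, as the series title gives it, is what silencing circHIPK3 does to mRNA levels. The labels do not say whether replicates came from separate cultures, so the spread behind each p-value is that of these 6 samples and could be technical. The circular RNA itself was not assayed by a probe known to be specific for it. No other tissue was measured, so repression relative to other tissues was not tested. In bulk RNA, fewer cells of a type and less RNA per cell cannot be told apart.

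Beta cells release insulin in step with glucose because nearly all glucose carbon is sent to the mitochondria. Lactate dehydrogenase A, the lactate and pyruvate carrier MCT1 (Slc16a1) and low-Km hexokinases would let pyruvate bypass that route, or let glucose metabolism run at low glucose, and their low expression is a textbook trait of mature beta cells. Other genes on the list control transcription, growth signalling or the cytoskeleton. Insulinoma lines can express some of them.

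A signal is given as log2 of the processed signal relative to the 75th percentile of its array, so 0 is the 75th percentile and each unit is a 2-fold step. Levels of different probes are not compared, since probes differ in how brightly they bind. Over the 6 arrays the 75th percentile lay between 2939 and 3669 units, no probe was saturated, and 77.7% to 83.5% of probes were well above background. The 20 beta cell markers tested, Ins1 and Ins2 among them, were all well above background on the 3 siGFP arrays.

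At baseline, 22 of the 28 genes (78.6%) had a probe well above background on all 3 siGFP arrays. The share over all genes and unnamed transcripts was 76.2%, so the list was detected about as often as the array as a whole. By probe the count was 36 of 44 (81.8%), against 76.4% of all probes. Zfp36l1, an RNA-binding protein that promotes decay of AU-rich mRNAs, was detected on 2 of 3 siGFP arrays and on all 3 circHIPK3 siRNA arrays. The other 5 were not well above background on any array. They were Pdgfra (a receptor for platelet-derived growth factor), Yap1 (the transcriptional coactivator held back by Hippo signalling), Fcgrt (the neonatal Fc receptor), Itih5 (a hyaluronan-binding extracellular protein) and Cd302 (a C-type lectin receptor).

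The undetected probes were dim in both groups. Pdgfra gave 4.84 to 7.39 units over the 6 arrays, Yap1 5.12 to 7.02, Cd302 4.64 to 6.0, Itih5 5.50 to 18.2 and Fcgrt 5.94 to 26.8. By comparison, the dimmest spot with the well-above-background flag gave 21.9 to 27.3 units, depending on the array. On circHIPK3 siRNA array 3, Fcgrt at 26.8 units lay just above that array's dimmest flagged spot (26.1), without the flag itself. For these genes the arrays give only an upper bound, and no change was computed.

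**Figure D1:**
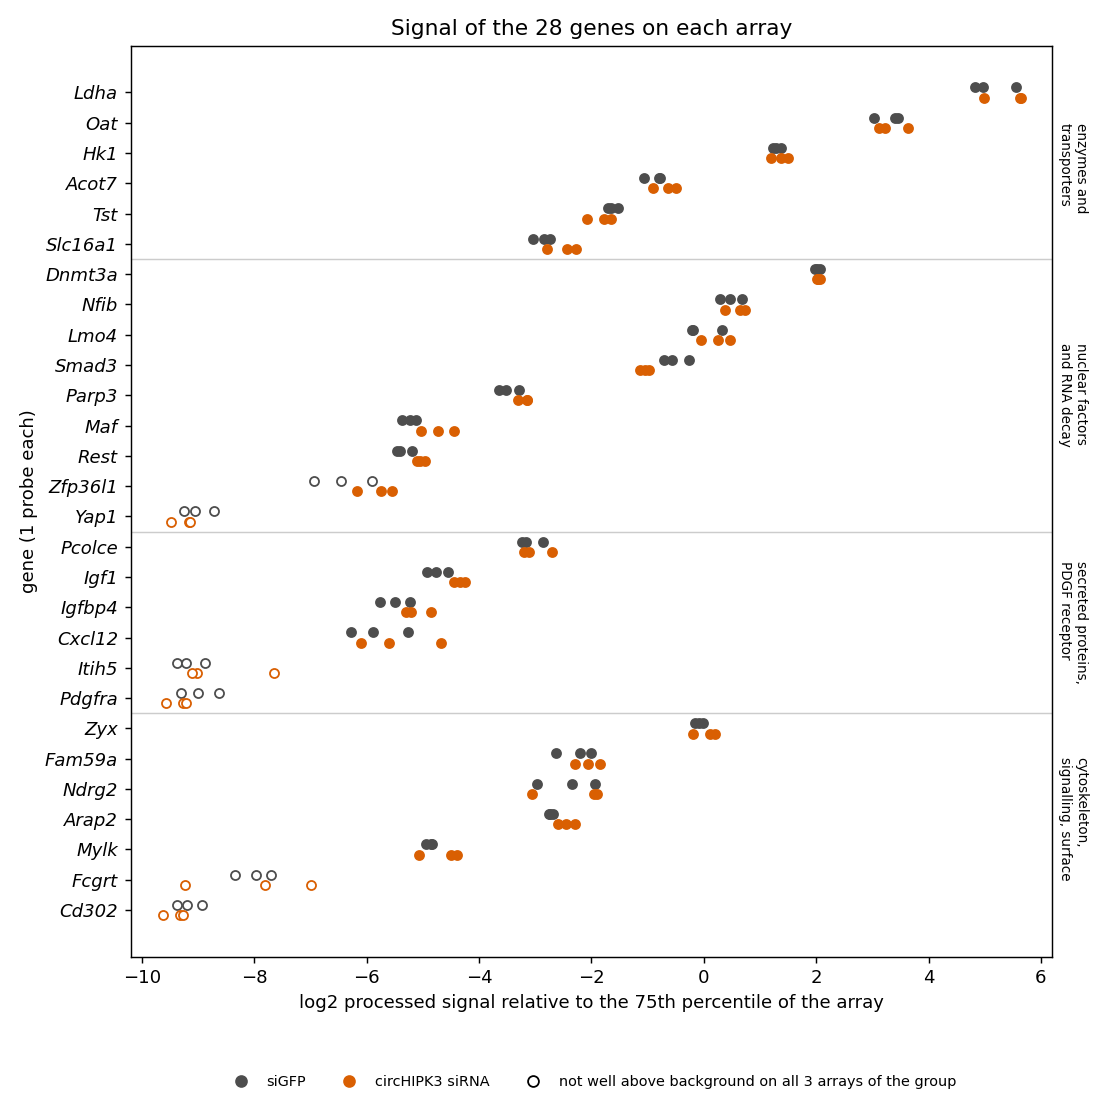
Log2 processed signal relative to the 75th percentile of the array (x axis) for 1 probe of each of the 28 genes, with 1 point per array, grey for siGFP and orange for circHIPK3 siRNA; open points mark groups in which the probe was not well above background on all 3 arrays. The groups overlap for most genes, Smad3 stands lower and Rest, Maf, Igf1 and Arap2 higher in the circHIPK3 siRNA arrays, and the dimmest rows are the undetected genes.

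Promoter sequence was set beside detection, since CpG-rich promoters are common among broadly expressed genes. RefSeq (GRCm38.p6) gave a window of 250 bases before the start site for 23 of the 28 genes. Over all mouse genes in that table the median was 6 CpG dinucleotides in a gene's richest window. The 17 detected genes with a window had 3 to 44, with a median of 16, and the 6 others had 3 to 44, with a median of 6. Yap1, with 44, sets the upper end of the latter group; its other 5 genes, with Zfp36l1 (10, detected on some siGFP arrays) among them, had 3 to 10. Each gene was scored by its richest window. Only detected genes (Ldha, Hk1, Lmo4, Dnmt3a and Ndrg2) had several windows, so this choice can raise the counts of that group alone. Windows with few CpG occurred in both groups, and the difference was not tested. A detected gene with a CpG-rich window (Dnmt3a, 40 CpG), an undetected one with a rich window (Yap1, 44 CpG) and an undetected one with few (Pdgfra, 4 CpG) are shown as examples. The windows are printed 5′ to 3′ on the gene's strand with each CG in capitals.
Dnmt3a, chr12:3806910-3807159, plus strand: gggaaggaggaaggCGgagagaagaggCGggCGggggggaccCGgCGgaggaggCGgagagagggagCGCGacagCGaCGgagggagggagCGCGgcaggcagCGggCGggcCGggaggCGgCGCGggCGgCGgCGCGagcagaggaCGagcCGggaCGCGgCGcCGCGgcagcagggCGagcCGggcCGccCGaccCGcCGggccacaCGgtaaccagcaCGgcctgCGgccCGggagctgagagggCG
Yap1, chr9:8004597-8004846, minus strand: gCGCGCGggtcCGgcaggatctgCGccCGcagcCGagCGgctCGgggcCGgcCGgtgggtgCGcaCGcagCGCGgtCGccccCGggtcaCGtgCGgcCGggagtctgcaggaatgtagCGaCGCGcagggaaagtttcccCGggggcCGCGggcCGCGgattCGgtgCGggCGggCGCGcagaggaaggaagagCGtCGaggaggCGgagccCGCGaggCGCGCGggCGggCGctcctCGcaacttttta
Pdgfra, chr5:75152001-75152250, plus strand: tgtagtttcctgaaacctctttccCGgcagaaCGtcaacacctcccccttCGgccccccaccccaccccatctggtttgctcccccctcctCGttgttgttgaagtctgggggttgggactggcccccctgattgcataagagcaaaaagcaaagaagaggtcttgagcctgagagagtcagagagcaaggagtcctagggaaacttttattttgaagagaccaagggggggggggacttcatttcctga

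**Figure D2:**
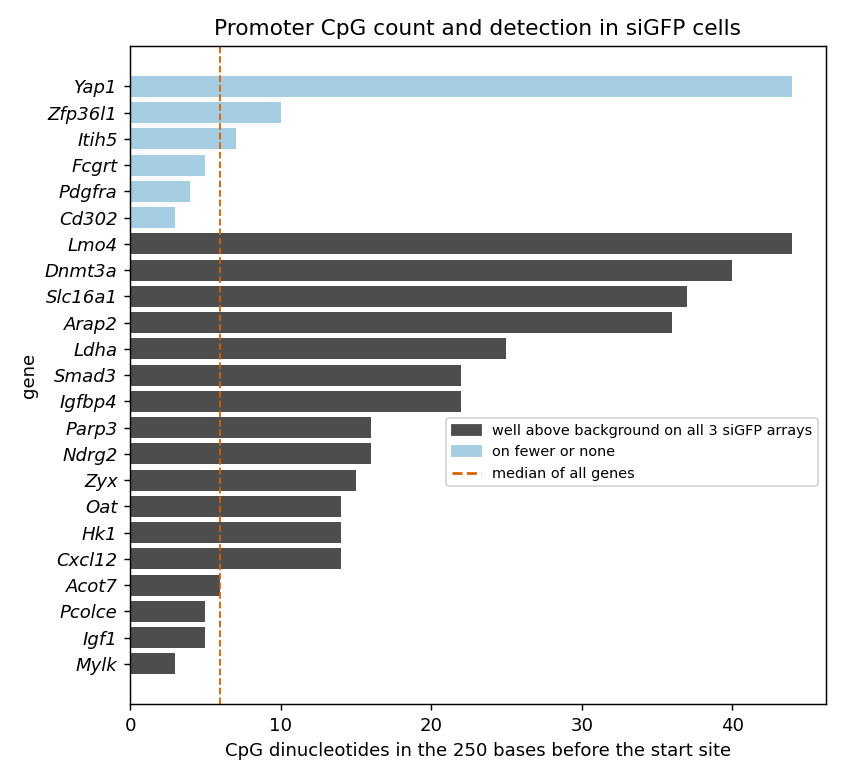
Number of CpG dinucleotides in the 250 bases before the start site (x axis, richest window of the gene) for the 23 genes with a RefSeq window, dark bars for genes well above background on all 3 siGFP arrays and light bars for the others; the dashed line is the median of all genes. Yap1, undetected, has as many as Lmo4, detected, at 44 each.

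None of the 23 genes tested passed an adjusted p of 0.05 between circHIPK3 siRNA and siGFP (limma, Benjamini-Hochberg over 25776 genes and unnamed transcripts), where 1.18% of all did (303). Their adjusted p-values ran from 0.0964 to 0.941. At an unadjusted p under 0.05 there were 7 of 23 (30.4%), 6 higher and 1 lower in circHIPK3 siRNA, against 21.1% of all. That count depended on the processing. It was 2 of 23 with quantile normalization (against 17.9% of all) and 2 with normexp background correction (against 14.3%). With median scaling it was 3 (against 19.5%), and with array weights 12 (against 31.0%). With 3 arrays a group, an exact permutation test of a single gene cannot go below p = 0.10. The 95% interval of the change lay within 2-fold in either direction for 21 of the 23 and within 1.5-fold for 11, Zfp36l1 and Cxcl12 being the exceptions at 2-fold.

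The groups did not overlap for 5 genes. Rest, Maf, Igf1 and Arap2 were higher on every circHIPK3 siRNA array than on any siGFP array, 17.4% of the 23 against 16.6% of all genes tested. Smad3 was lower on every one, 4.35% against 9.38%. The shares are close to or under the background, and give no result particular to the list. The median change of the 23 was 0.23 (log2), and that of all genes tested 0.08. Of the 23, 18 lay above the latter and 21 had a positive change. Zfp36l1 counts in both, though it passed the filter only through the circHIPK3 siRNA arrays, which favours a positive value.

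Brightness moved with these positive values. All genes tested were split by mean signal into 4 classes of equal size, whose median changes were 0.28 in the dimmest, then 0.15, 0.02 and -0.0097 in the brightest. The 7 members in the dimmest class (Rest, Igfbp4, Cxcl12, Maf, Zfp36l1, Igf1 and Mylk) all had positive changes, with a median of 0.37. With the background corrected by normexp, a model of signal plus background, their median was 0.13 and that of all genes in that class 0.06; with quantile normalization theirs was 0.15. The other 16 had a median of 0.12 under each of the 3 settings. Zfp36l1, among the 7, passed the filter only through the circHIPK3 siRNA arrays, which favours a positive value. Of the 25776 genes tested, 24725 were detected on all 3 siGFP arrays. The others entered only through the circHIPK3 siRNA arrays, which can raise a class median, and the size of that was not tested. The part of background signal in the dim members' changes was not tested further.

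**Figure D3:**
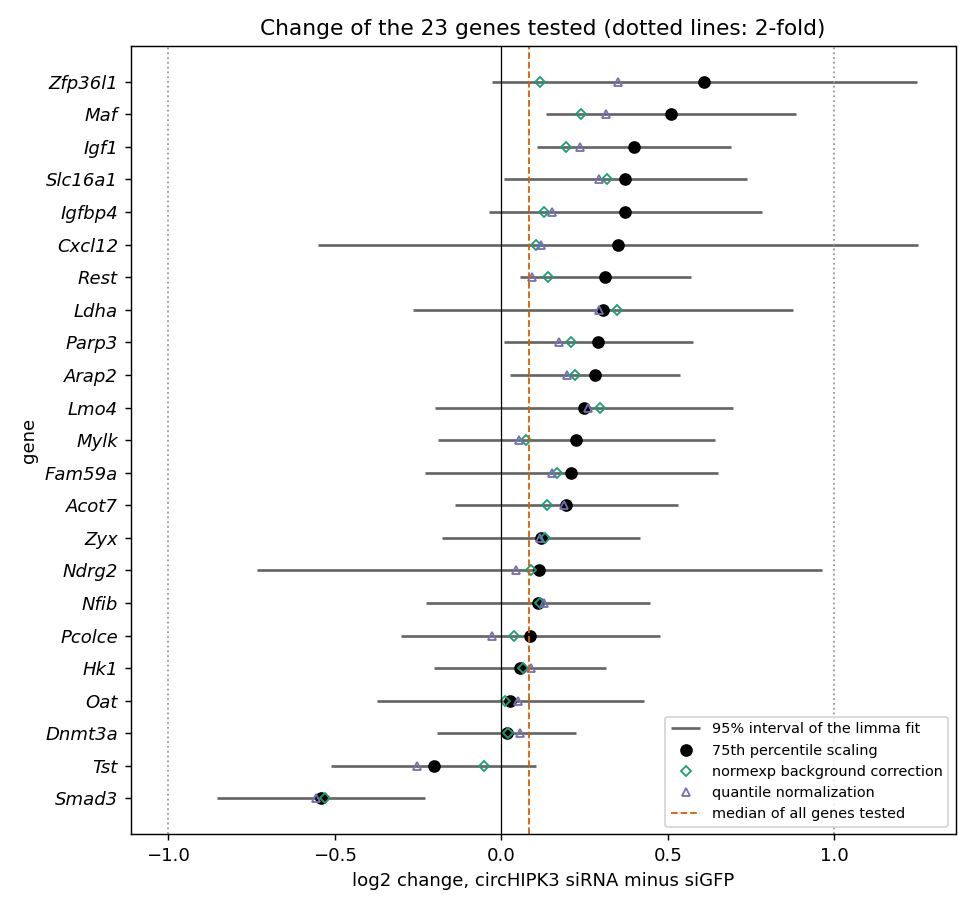
Log2 change, circHIPK3 siRNA minus siGFP (x axis), of the 23 genes tested, with black points and 95% intervals from limma on 75th percentile scaling, diamonds for normexp background correction, triangles for quantile normalization and a dashed line at the median of all genes tested (0.08). Smad3 keeps its place under all 3 settings (-0.54, -0.53 and -0.55), and Zfp36l1 moves from 0.61 to 0.12 with normexp.

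Among the enzymes and transporters, no gene passed the test and Ldha varied more within groups than between them. Ldha, which reduces pyruvate to lactate, read 4.82, 5.56 and 4.97 on siGFP arrays 1 to 3 and 5.62, 5.65 and 4.99 on circHIPK3 siRNA arrays 1 to 3. The arrays fell into a high trio (siGFP 2, circHIPK3 siRNA 1 and 2) and a low trio, which cut across the groups. The means were 5.11 ± 0.39 and 5.42 ± 0.37 (SD, n = 3 each), and the change was 0.31 ± 0.24 (SE; 95% interval -0.27 to 0.88; limma adjusted p = 0.487). It was 0.16 without siGFP 1 and 0.53 without siGFP 2, the ends of the range over arrays left out in turn, and 0.51 within the scan that held both groups. Both other Ldha probes had siGFP 1 lowest and siGFP 2 highest among the siGFP arrays, with changes of 0.48 ± 0.32 and 0.33 ± 0.18 (SE). Ldha's within-group SD of 0.38 was larger than that of 92.9% of genes tested, whose median was 0.16.

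Slc16a1, the MCT1 carrier of lactate and pyruvate, read -2.73, -3.04 and -2.84 in siGFP and -2.78, -2.44 and -2.27 in circHIPK3 siRNA. The groups overlapped through circHIPK3 siRNA 1. The change was 0.37 ± 0.16 (SE; 95% interval 0.01 to 0.74; limma adjusted p = 0.228), and 0.09 among the 4 arrays of the scan that held both groups.

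Hk1, the low-Km hexokinase, read 1.29, 1.23 and 1.38 in siGFP and 1.37, 1.49 and 1.20 in circHIPK3 siRNA. Its change of 0.06 ± 0.11 (SE; 95% interval -0.20 to 0.31) bounds any difference in Hk1 signal to well under 1.5-fold on this scale. Hk2, another low-Km hexokinase, was not well above background on any array (5.18 to 6.77 units).

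Oat, ornithine aminotransferase, read 3.4, 3.04 and 3.45 in siGFP and 3.22, 3.12 and 3.62 in circHIPK3 siRNA, with a change of 0.03 ± 0.17 (SE). Acot7, an acyl-CoA thioesterase, read -0.77, -1.07 and -0.79 against -0.91, -0.63 and -0.50 (0.20 ± 0.14, SE). Tst, thiosulfate sulfurtransferase, read -1.53, -1.70 and -1.66 against -1.65, -1.77 and -2.07 (-0.20 ± 0.13, SE). The groups overlapped for each of these enzymes, and the limma adjusted p-values were 0.941, 0.447 and 0.393. Tst and Smad3 were the only 2 of the 23 with a negative change, and a second Tst probe gave -0.04 ± 0.10 (SE).

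Genes that share lactate handling with Ldha and Slc16a1 give context. Ldhb, which favours the reverse reaction, read -1.91, -2.10 and -1.81 in siGFP and -2.24, -2.47 and -2.24 in circHIPK3 siRNA. Every circHIPK3 siRNA array was lower, by 0.37 ± 0.12 (SE), without passing the test (limma adjusted p = 0.156); with array weights it passed (-0.50, adjusted p = 0.0417), and over the 20 alternatives adjusted p ran from 0.0417 to 0.648. Slc16a3, the lactate exporter MCT4, read 2.79, 3.67 and 3.12 against 3.67, 3.82 and 2.86 (0.26 ± 0.30, SE). Of 20 genes of lactate and pyruvate metabolism tested, 0 passed in either direction by limma. At an unadjusted p under 0.05, 2 were higher and 3 lower (25%, against 21.1% of all genes). The list's median change was 0.04 below that of all genes.

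Slc16a3 and Pdk1, the kinase that holds back pyruvate dehydrogenase, followed Ldha from array to array. Pdk1 read -0.11, 0.87 and 0.09 in siGFP and 0.28, 0.74 and -0.01 in circHIPK3 siRNA. It was named after its values were seen, as were the 22 hypoxia-responsive genes next described; none of them is a member. In that list, siGFP 2 was the highest siGFP array for 17 genes (25.8% of all genes tested had it highest), siGFP 1 the lowest for 17 (21.8% of all), and circHIPK3 siRNA 3 the lowest of its group for 16 (28.5% of all). Between the groups, 0 of the 22 passed by limma, and 5 were higher and 1 lower at an unadjusted p under 0.05 (27.3%, against 21.1% of all). Mxi1, among the 5 higher, passed the filter only through the circHIPK3 siRNA arrays, which favours a positive value. Median deviations from the group mean were -0.16, 0.24 and -0.03 over the siGFP arrays and 0.11, 0.08 and -0.21 over the circHIPK3 siRNA arrays. Slc16a1 and Ndrg2 did not follow this order. Oxygen and culture density were not recorded in the labels, and their part was not tested.

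**Figure D4:**
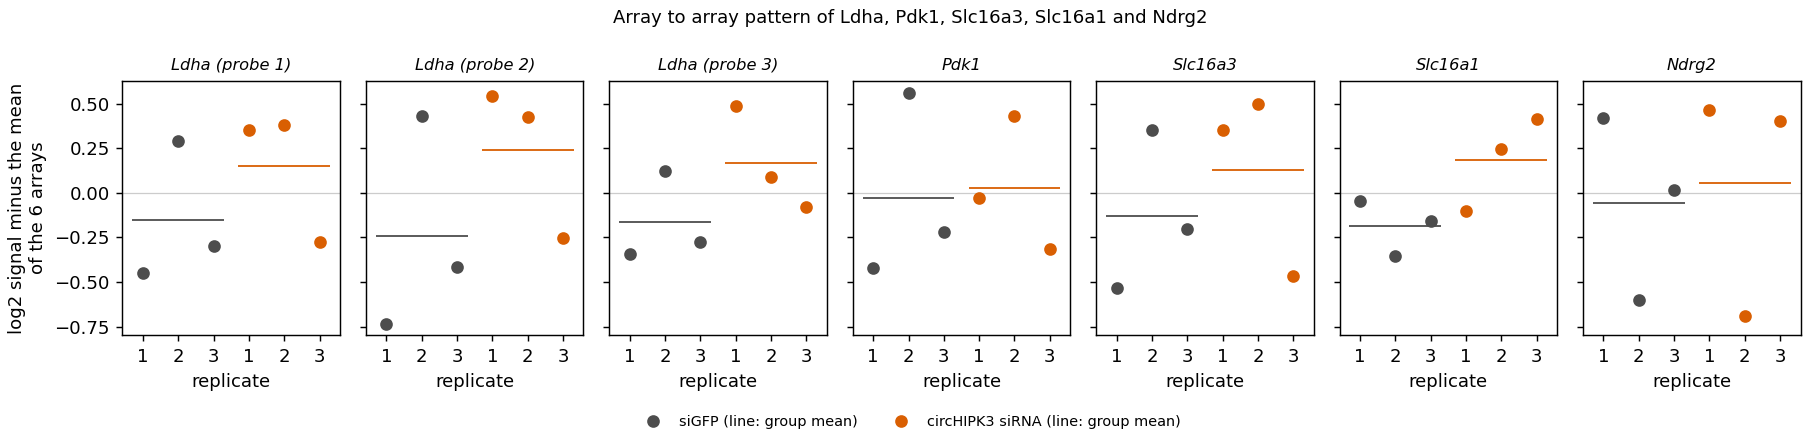
Log2 signal minus the mean of the 6 arrays (y axis) for the 3 Ldha probes, Pdk1, Slc16a3, Slc16a1 and Ndrg2, with 1 point per array (grey siGFP, orange circHIPK3 siRNA) and a line at each group mean. In every Ldha panel siGFP 2 lies above siGFP 1 and 3, as in the Pdk1 and Slc16a3 panels, while Ndrg2 has siGFP 2 lowest.

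The promoters of Ldha and Slc16a1 are shown because both are held to be off in beta cells yet were detected here. The letters ACGTG, on either strand (ACGTG or CACGT), are a form of the core of the hypoxia response element. No other form was counted. CACGTG holds these letters on both strands, is also the E-box bound by MYC and USF proteins, and was counted as 1 place. This search was added after Ldha's values were seen. The printed Ldha window held 3 places, a second Ldha window held 0, and that of Slc16a1 held 1. Of all windows 16.6% held at least 1 and 0.256% held 3 or more. By gene, 6 of the 23 members with a window held at least 1 (Ldha, Slc16a1, Lmo4, Dnmt3a, Mylk and the undetected Yap1), against 18.5% of all genes. The places are in capitals.
Ldha, chr7:46845554-46845803, plus strand: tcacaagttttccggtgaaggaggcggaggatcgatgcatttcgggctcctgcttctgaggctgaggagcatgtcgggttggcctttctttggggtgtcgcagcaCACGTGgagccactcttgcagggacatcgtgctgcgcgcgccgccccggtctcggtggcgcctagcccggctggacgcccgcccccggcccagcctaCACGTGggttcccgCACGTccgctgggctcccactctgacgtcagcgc
Slc16a1, chr3:104638414-104638663, plus strand: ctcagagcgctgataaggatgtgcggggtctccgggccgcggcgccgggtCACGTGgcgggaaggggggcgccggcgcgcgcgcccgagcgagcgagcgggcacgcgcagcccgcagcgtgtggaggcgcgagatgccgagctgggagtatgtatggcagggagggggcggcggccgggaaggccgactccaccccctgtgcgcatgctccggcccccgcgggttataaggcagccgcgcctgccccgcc

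Among the nuclear factors, Smad3 came nearest to the threshold. Smad3, which carries TGF-beta and activin signals to the nucleus, read -0.26, -0.71 and -0.56 in siGFP and -1.04, -0.98 and -1.13 in circHIPK3 siRNA. Every circHIPK3 siRNA array was lower than every siGFP array. The means were -0.51 ± 0.23 and -1.05 ± 0.07 (SD, n = 3 each), a change of -0.54 ± 0.13 (SE; 95% interval -0.85 to -0.23), or 1.45-fold. The limma p was 0.00436 before adjustment and 0.0964 after it.

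A second, dimmer Smad3 probe read -5.22, -5.73 and -5.62 against -6.09, -5.86 and -6.06, also without overlap (-0.48 ± 0.15, SE). Over 20 alternatives the Smad3 change stayed between -0.64 and -0.42, and among the 4 arrays of the scan that held both groups it was -0.53. Smad3 passed with median scaling (limma adjusted p = 0.0473) and with array weights (0.0487), and in no other setting, leave-one-out fits included; adjusted p ran from 0.0473 to 0.424. Of 14 genes of TGF-beta and SMAD signalling tested, 0 passed by limma in either direction. At an unadjusted p under 0.05, 2 were higher and 0 lower (14.3%, against 21.1% of all genes).

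Rest, the repressor that keeps neuronal genes off outside neurons and endocrine cells, read -5.42, -5.46 and -5.19 in siGFP and -5.11, -5.05 and -4.97 in circHIPK3 siRNA. The groups did not overlap, though the nearest arrays were close. The change was 0.31 ± 0.11 (SE; limma adjusted p = 0.177), 0.14 with normexp and 0.09 with quantile normalization. A second Rest probe was well above background on only 1 array, of the circHIPK3 siRNA group. Of 14 REST target genes tested 1 was higher and 1 lower at an unadjusted p under 0.05 (14.3%). Of 17 REST cofactors 0 were higher and 4 lower (23.5%). The share of all genes was 21.1%, and 0 of either list passed by limma. Cofactor signal, summed as for the cell type lists below, was lower in circHIPK3 siRNA without overlap. The sums ran from 54.1 to 60.7 in circHIPK3 siRNA and from 61.8 to 63.8 in siGFP. The cofactors' median change was -0.10, and the sums of the REST target genes overlapped.

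Maf (c-MAF), a factor of the same family as the beta cell regulator MAFA, read -5.11, -5.37 and -5.24 against -5.03, -4.72 and -4.44. Each circHIPK3 siRNA array was higher, replicate 1 by little. The change was 0.51 ± 0.16 (SE; 95% interval 0.13 to 0.89; limma adjusted p = 0.150), 0.24 with normexp and 0.21 within the scan that held both groups. Without circHIPK3 siRNA replicate 1 Maf passed (0.66, adjusted p = 0.0439), but the groups then lay in separate scans. Mafa itself had a difference of -0.02 ± 0.12 (SE).

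Dnmt3a, a de novo DNA methyltransferase that helps silence Ldha and Hk1 in maturing beta cells, read 2.02, 1.98 and 2.07 in siGFP and 2.02, 2.03 and 2.07 in circHIPK3 siRNA. The groups were nearly the same, with a change of 0.02 ± 0.09 (SE; 95% interval -0.19 to 0.22) and a within-group SD of 0.04, among the smallest 1.01% of genes tested. Of 11 DNA methylation genes tested 0 passed by limma, and 2 were higher and 3 lower at an unadjusted p under 0.05. The unadjusted share was 45.5%, against 21.1% of all genes. Signal summed over the list, as for the cell type lists below, was lower in circHIPK3 siRNA without overlap. The sums ran from 27.0 to 30.0 in circHIPK3 siRNA and from 33.5 to 34.5 in siGFP. The brightest probes carry such a sum, and the median change of the list's genes was -0.04.

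Parp3, a DNA repair ADP-ribosyltransferase, read -3.65, -3.29 and -3.51 against -3.14, -3.14 and -3.30, higher by 0.29 ± 0.12 (SE; limma adjusted p = 0.228) with 1 siGFP array overlapping. Lmo4, a LIM-only transcriptional adaptor, read -0.19, 0.33 and -0.21 against 0.47, 0.26 and -0.05 (0.25 ± 0.19, SE). Nfib, a nuclear factor I protein, read 0.28, 0.68 and 0.46 against 0.64, 0.73 and 0.38 (0.11 ± 0.14, SE), and its 5 probes gave 0.03 to 0.17. Both Lmo4 and Nfib overlapped between groups. Zfp36l1 was tested only because it was detected in all 3 circHIPK3 siRNA arrays, a choice that favours a positive value; its change was 0.61 ± 0.27 (SE; limma adjusted p = 0.251), and 0.12 with normexp.

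Yap1 was undetected, so its Hippo pathway partners were read instead. Of 18 Hippo and YAP genes tested 0 passed higher and 1 lower by limma, where 1.18% of all genes passed. At an unadjusted p under 0.05, 4 were higher and 3 lower, against 21.1% of all. Of the 18, 16 were detected on all 3 siGFP arrays. The rest entered only through the circHIPK3 siRNA arrays, which favours a positive value. The gene that passed lower was Stk3 (MST2), an upstream Hippo kinase. It read -0.96, -0.64 and -0.84 in siGFP and -1.84, -1.63 and -1.84 in circHIPK3 siRNA. It fell by 0.96 ± 0.12 on the log2 scale (SE; limma adjusted p = 0.0305), was lower on 3 of 3 arrays, and passed in 11 of 20 alternatives, whose adjusted p ran from 0.00461 to 0.166. It did not pass when siGFP 1, siGFP 2, siGFP 3, circHIPK3 siRNA 2 or circHIPK3 siRNA 3 was left out, where the change was -1.03, -0.87, -0.97, -1.03 and -0.92, nor with the replicate block, the scan as a fixed block or no filter on dim probes. Within the scan that held both groups it did not pass either (-1.03, adjusted p = 0.166).

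Of the secreted proteins, Igf1 was the one whose groups did not overlap. Igf1, insulin-like growth factor 1, read -4.77, -4.92 and -4.55 in siGFP and -4.45, -4.35 and -4.25 in circHIPK3 siRNA. The groups did not overlap on this probe or on a second (0.40 ± 0.12 and 0.36 ± 0.10, SE; limma adjusted p = 0.148 and 0.120). Another Igf1 probe overlapped (0.28 ± 0.23, SE) and the last was not well above background on any array. With normexp the first probe gave 0.20, and within the scan that held both groups 0.30.

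Igfbp4, which binds IGFs, read -5.23, -5.49 and -5.76 against -5.31, -4.85 and -5.21 (0.37 ± 0.17, SE; limma adjusted p = 0.269). Cxcl12, the chemokine ligand of CXCR4, read -5.88, -5.26 and -6.27 against -6.10, -4.68 and -5.60 (0.35 ± 0.39, SE; 95% interval -0.55 to 1.25). Its within-group SD of 0.62 exceeded that of 98.6% of genes tested, and a second probe, for another RefSeq transcript, gave -0.12 ± 0.14 (SE). Pcolce, an enhancer of procollagen processing, read -2.86, -3.24 and -3.16 against -2.70, -3.12 and -3.19 (0.09 ± 0.17, SE). All 3 overlapped between groups. Of 12 PDGF, IGF and CXCL12 pathway genes tested 0 passed by limma. At an unadjusted p under 0.05, 1 was higher and 0 lower (8.33%, against 21.1% of all genes).

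Among the cytoskeletal and signalling genes, Arap2 was the one whose groups did not overlap. Arap2, a GTPase-activating protein for ARF6, read -2.74, -2.68 and -2.75 in siGFP and -2.45, -2.59 and -2.28 in circHIPK3 siRNA. The change was 0.28 ± 0.11 (SE; 95% interval 0.03 to 0.54; limma adjusted p = 0.205) and 0.27 within the scan that held both groups, but a second probe overlapped (0.12 ± 0.13, SE).

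Zyx, the focal adhesion protein zyxin, read -0.15, -0.01 and -0.09 against 0.11, 0.19 and -0.20 (0.12 ± 0.13, SE). Mylk, myosin light chain kinase, read -4.84, -4.94 and -4.85 against -5.06, -4.49 and -4.40 (0.23 ± 0.18, SE). Both overlapped, Zyx through circHIPK3 siRNA 3 and Mylk through circHIPK3 siRNA 1. Of 13 focal adhesion and smooth muscle actin genes tested, 0 passed by limma in either direction; 5 were higher and 0 lower at an unadjusted p under 0.05, against 21.1% of all genes.

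Ndrg2, an N-myc downstream-regulated protein, read -1.94, -2.96 and -2.34 in siGFP and -1.90, -3.05 and -1.96 in circHIPK3 siRNA. Replicate 2 was lowest in both groups, and its within-group SD of 0.59 exceeded that of 98.3% of genes tested. The change of 0.11 ± 0.36 (SE; 95% interval -0.73 to 0.96) was far smaller than that spread. Fam59a, an adaptor of growth factor receptor signalling, read -2.0, -2.63 and -2.21 against -2.06, -2.30 and -1.84 (0.21 ± 0.19, SE).

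Paralogs of the 28 genes and markers of cell types were read by the same fit. Of 33 paralogs tested 0 passed by limma, and 7 were higher and 3 lower at an unadjusted p under 0.05 (30.3%, against 21.1% of all genes). Of the 20 beta cell markers 0 passed by limma, with 1 higher and 3 lower unadjusted (20%). Ins1, Ins2 and Pdx1 changed by -0.12 ± 0.09, -0.12 ± 0.10 and 0.04 ± 0.12 (SE).

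Markers of other cell types were partly detected. Hhex (other islet cells), Sox9 (duct), Postn (mesenchyme), Cdh5 and Tie1 (endothelium) and Lyz2 (myeloid cells) were not well above background on any array. None of the other islet (6 tested), acinar and duct (9), mesenchymal (7), endothelial (4) or leukocyte (7) markers passed by limma. At an unadjusted p under 0.05, 3 other islet markers were higher and 0 lower, 2 acinar and duct markers higher and 0 lower, 2 mesenchymal markers higher and 2 lower, 0 endothelial markers higher or lower, and 2 leukocyte markers were higher and 0 lower, against 21.1% of all genes. For each list the probes' levels relative to the 75th percentile of the array were summed. Summed acinar and duct signal was higher on every circHIPK3 siRNA array (11.5 to 16.4) than on any siGFP array (9.28 to 9.91). Summed mesenchymal signal was lower on every circHIPK3 siRNA array (0.979 to 1.64) than on any siGFP array (1.75 to 2.26). The sums overlapped for other islet markers (17.1 to 30.7 in siGFP, 11.7 to 21.2 in circHIPK3 siRNA), endothelial markers (4.22 to 5.28 and 3.67 to 4.72) and leukocyte markers (6.47 to 7.36 and 6.0 to 8.78). A sum is carried by its brightest probes, so its direction can differ from that of most of its genes, as for the other islet markers. The part of such cells in the values of Igf1, Maf or Rest was not tested.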

How the data were processed

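The deposited scanner files hold Agilent single-colour (Cy3) intensity per spot and, per the file headers, flags for spots well above background, saturated or outlying; Agilent Feature Extraction 11.0.1.1 is named in the submitters' processing notes. The authors' deposited value table holds log2 values of 31868 probes, whose normalization is not given in the sources used here. Per the file headers, 1 scan took in every siGFP array with circHIPK3 siRNA replicate 1, and another took in circHIPK3 siRNA replicates 2 and 3.

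From the intensities, log2 of the processed signal minus the array's 75th percentile over 43020 non-control spots was computed. Spots flagged as outliers were dropped and spots of a probe averaged. Probes needed the well-above-background flag throughout 1 group or the other (31379 of 39429 probes), and the brightest kept probe stood for its gene. The lactate, hypoxia, Hippo, TGF-beta, paralog and acinar and duct lists each had more genes tested than detected on all 3 siGFP arrays. Those further genes entered only through the circHIPK3 siRNA arrays, which favours higher values. Probes were named by RefSeq accession (27234 with a symbol, 12195 without). Groups were compared with limma 3.58.1 (lmFit, eBayes; R 4.3.3) and Benjamini-Hochberg adjustment, threshold 0.05, tested on simulated data. Errors of change are the fit's standard errors. Only 6 arrays limit the precision.

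Every member is accounted for. Members detected on all siGFP arrays, or whose groups did not overlap, were given by array; of the other lists, those that passed were named, with Ldhb, Slc16a3, Hk2, Mafa, Ins1, Ins2 and Pdx1 in any case; some other genes of this rule are not reported here. The members and lists were chosen with earlier results of these data known. Alternatives covered scaling, background correction, filters, variance models, scan and replicate blocks, and leaving out each array.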

Additional observations from a re-analysis of the deposited data

How the results depend on the processing

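Of the 28 genes, 22 to 23 were detected in siGFP under every definition of detection tried. The count of members that passed stayed at 0 except for 1 with median scaling (Smad3) and 1 with array weights (Smad3); leaving out each replicate gave 0 to 1 (Maf, without circHIPK3 siRNA replicate 1). The members' median change minus that of all genes was 0.10 to 0.15 over the leave-one-out fits. Over all genes 303 passed by limma (138 higher, 165 lower). The count was 602 with median scaling, 185 in the deposited value table and 630 with trend and robust variance. It was 1804 with array weights and 124 with the scan as a random block. By limma 0 passed with no filter on dim probes (5631 at an unadjusted p under 0.05) and with the scan as a fixed block (2676). The scan holding both groups has 1 circHIPK3 siRNA array, so no count is given for it alone. Leaving out each replicate gave 0 to 1736. Quantile normalization gave 42 higher and 202 lower. The replicate block gave 0 by limma (5133 unadjusted) and 0 members. Same-numbered samples' deviations correlated at -0.02, 0.27 and -0.13. Correlations over all genes on so few arrays cannot decide whether the numbers pair the samples, and the labels do not say.

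Of the 23 members, 15 kept their sign over the 20 settings (19 for Zfp36l1, which the filter on all 6 arrays removed). The settings without a filter, with the filter on all 6 arrays and with every kept probe left each fitted member's change as it was. So did trend and robust variance and the replicate block, so no sign could turn in these settings. With 0 members called in the main fit, no member call could reverse, and Stk3 kept its sign. Small uncalled changes that turned sign were, with quantile normalization, Pcolce (-0.028) and Mafa (0.028); with cyclic loess, Pcolce (-0.024) and Mafa (0.00089); in the value table, Pcolce (-0.028) and Mafa (0.028); with median scaling, Hk1 (-0.048), Oat (-0.075), Dnmt3a (-0.087), Pcolce (-0.016) and Pdx1 (-0.066); with array weights, Oat (-0.14), Ndrg2 (-0.32), Dnmt3a (-0.0075) and Pdx1 (-0.055). With the scan as a fixed block, they were Acot7 (-0.036), Oat (-0.077), Cxcl12 (-0.29), Dnmt3a (-0.0062), Mylk (-0.19) and Pdx1 (-0.061). The scan holding both groups alone gave the same changes, so these 2 settings count as 1 for sign. Leaving out each replicate gave Oat -0.12 to 0.13, Ndrg2 -0.16 to 0.49, Dnmt3a -0.0067 to 0.040, Pdx1 -0.051 to 0.11, Mafa -0.076 to 0.081, Pcolce -0.066 to 0.20, Hk1 -0.012 to 0.13 and Cxcl12 -0.041 to 0.67. The causes were not tested. Signal near background limits the 7 dimmest members and the 5 undetected ones.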
